A study of Mus musculus with 2 samples.

Results

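The 9 genes described here encode chains of the laminins, the large cross-shaped proteins of basement membranes. They were *Lama1*, *Lama2*, *Lama3*, *Lama4*, *Lama5*, *Lamb1*, *Lamb2*, *Lamb3* and *Lamc1*, out of 21938 protein-coding genes on the autosomes, X and Y. A peak belonged to one of them if the deposited annotation named the gene or if at least 1 bp of the peak lay on the gene body, the stretch between the annotated start and end of the gene. By this rule 54 of the 45575 H3K36me3 peaks belonged to the laminin genes. All 54 lay on a gene body, and 37 of them also carried the symbol of a laminin gene in the deposited annotation.

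H3K36me3, the trimethylated lysine 36 of histone H3, was measured by ChIP-seq in primary keratinocytes (KCs), the main cells of the epidermis. The cells came from 10-week-old C57BL/6 mice of the genotype *Setd2fl/fl*, by dispase treatment of skin and trypsin digestion of the epidermis, with no cell sort named, and the series holds 1 ChIP library and 1 input library. These mice carry floxed *Setd2* alleles that had not been deleted, and they serve as the controls of the epidermal knockout of the study. No *Setd2*-deficient sample was analysed here, and the input was not used. With 1 library there was no replicate and no test between conditions, and the sequencing depth was unknown, so every value below describes this library.

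Each laminin is a trimer of an α, a β and a γ chain that is put together inside the cell and secreted into the basement membrane, where integrins and dystroglycan bind it. Basal KCs are known for laminin-332, which holds the α3 and β3 chains and anchors the epidermis to the dermis through hemidesmosomes; in humans, loss of α3 or β3 causes junctional epidermolysis bullosa. The α4 chain, encoded by *Lama4*, is known mainly from the basement membranes of blood vessels, muscle, fat and nerve. H3K36me3 is laid down by SETD2, which travels with elongating RNA polymerase II, and the mark usually grows denser towards the 3′ end of transcribed genes.

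*Lama4* carried many peaks and little cover, whereas *Lama3* and *Lamb3* carried wide blocks of H3K36me3 in the 3′ part of the gene. *Lama4* had 13 peaks over 6.09% of its body, *Lama3* had 18 peaks over 35.4%, and *Lamb3* had 4 peaks over 26.4%. The widest peak was 1589 bp on *Lama4*, against 44258 bp on *Lama3* and 20396 bp on *Lamb3*. *Lama5* and *Lamb2* had the highest covered shares of the 9 whole gene bodies, 66.9% and 57.9%. No peak lay on *Lama1* or *Lama2*.

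The study tested H3K36me3 at *Lama4* by ChIP-qPCR, and the place of its amplicon is shown first because it can be read directly against the peaks. The paper reports a ChIP-qPCR signal significantly above the IgG control at *Lama4*. By RT-qPCR it reports lower *Lama4* mRNA in the knockout mice. Both ChIP-qPCR primers matched 1 site each on the chromosomes that hold the laminin genes, without a mismatch. The amplicon of 105 bp (10:39011937-39012041, GRCm38) lay inside the peak nearest to the 5′ end of *Lama4*, a peak of 251 bp at 10:39011904-39012154 in intron 3. This was the narrowest peak on the gene, with a fold enrichment of 2.92. Among all peaks of the library it stood at percentile 0.463 by width and 51.1 by fold enrichment. Fold enrichment is how many times the ChIP signal in a peak exceeds the background level set by the peak caller that the authors used. The amplicon took up 41.8% of the peak, with 33 bp of the peak left on the 5′ side and 113 bp on the 3′ side. The whole peak reads as follows on the + strand, which is also the strand of *Lama4*, with the primer sites in capitals.

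Lama4 intron 3 peak: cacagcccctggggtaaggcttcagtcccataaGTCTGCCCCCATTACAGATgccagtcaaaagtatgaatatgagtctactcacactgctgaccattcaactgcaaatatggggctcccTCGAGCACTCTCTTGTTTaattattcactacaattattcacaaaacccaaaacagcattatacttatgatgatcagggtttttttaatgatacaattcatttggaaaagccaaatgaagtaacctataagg

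The first capitals are the sense primer and the second are the complement of the antisense primer. The amplicon began 46422 bp from the 5′ end of *Lama4*, at 32.1% of the body. The RT-qPCR primers of the study lay elsewhere, in exons 13 and 14, at 6597 and 9990 bp from the nearest peak.

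Peaks on the laminin genes started some distance inside the gene, and none held the 5′ end of the gene body. Of the 9 genes, 5 had a promoter sequence in the RefSeq table for GRCm38.p6 (*Lama2*, *Lama5*, *Lamb1*, *Lamb2* and *Lamb3*, the last with 2 starts). No peak base lay on the 250 bases before any of these 6 starts. How many of all promoters or gene starts lay under a peak was not counted. Neither absence can therefore be called a trait of the laminin genes. Among all protein-coding genes with a peak and a body of 5000 bp or more, cover was also low at the 5′ end. When each body was split into equal bins, as described below, mean cover was 3.73% in bin 1. *Lamb3* and *Lama5* are shown because both were widely covered downstream of the start, with GC boxes (GGGCGG on either strand) in capitals.

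Lamb3 inner start, 1:193301744-193301993, + strand: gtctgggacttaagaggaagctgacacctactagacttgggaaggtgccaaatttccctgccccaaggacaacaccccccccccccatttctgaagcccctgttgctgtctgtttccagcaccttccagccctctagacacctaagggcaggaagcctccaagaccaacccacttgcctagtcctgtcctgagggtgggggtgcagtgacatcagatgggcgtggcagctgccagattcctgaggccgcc

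Lama5 start, 2:180225860-180226109, − strand: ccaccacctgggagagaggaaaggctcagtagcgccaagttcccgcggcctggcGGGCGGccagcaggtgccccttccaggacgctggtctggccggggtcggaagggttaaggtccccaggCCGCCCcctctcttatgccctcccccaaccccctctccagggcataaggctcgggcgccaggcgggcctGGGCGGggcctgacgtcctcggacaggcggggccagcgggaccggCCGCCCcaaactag

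The next peak downstream began 2202 bp after the *Lamb3* start and 4458 bp after the *Lama5* start. GC made up 58.8% of the *Lamb3* promoter and 72.4% of the *Lama5* promoter, beside a median of 52.4% over 32851 promoters of the same length. The *Lamb3* promoter held 2 CpG and no GC box, and the *Lama5* promoter held 19 CpG and 4 GC boxes. The *Lamb1* promoter held 2 GC boxes, and 32.7% of all promoters held at least 1. The AP-1 motif (TGANTCA, either strand) was in none of the 6 promoters of laminin genes and in 6.75% of all promoters.

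Of the 9 laminin genes, 7 had a peak on the gene body, beside 51.4% of all protein-coding genes. The deposited annotation assigned a peak to the same number of laminin genes, 7, beside 45.4% of all protein-coding genes. The laminin genes are long, with a median length of 125389 bp against 17425 bp over all protein-coding genes. The median covered share, the percent of gene body bases inside peaks, was 26.4% for the 9 laminin genes and 1.07% for all protein-coding genes. Among genes with a peak the order was the other way, with 29.8% for the 7 laminin genes and 46.4% for the 11268 protein-coding genes. These medians were not matched for length. Among genes of like length with a peak, as defined below, the median was 55.8% at the length of *Lamb2* and 12.6% at that of *Lama3*. Within such matched sets, percentiles were 81.45 for *Lama3*, 72.3 for *Lama5*, 52.65 for *Lamb2*, 50.8 for *Lamb3* and 50.4 for *Lamc1*. *Lama4* and *Lamb1* stood lower, at 20.4 and 8.18. The order of the medians thus cannot be separated from gene length.

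Single peaks on laminin genes were of ordinary strength for this library. Their median fold enrichment was 2.78, with a range of 2.54 to 3.73, and that of all peaks was 2.91, with a highest value of 6.97. Median width was 1060 bp for the 54 peaks and 1614 bp for all peaks. Of the 54 peaks, 25 were under 1000 bp and 7 were over 10000 bp, and over all peaks these classes made up 35.0% and 10.1%. At a fold enrichment of at least 3, 7 laminin genes still had a peak on the body, beside 42.6% of all protein-coding genes. At P below 1e-05, as given by the authors' peak caller, 4 laminin genes had one (*Lama3*, *Lama5*, *Lamb1* and *Lamc1*), beside 24.6%. *Lamb1* passed both limits only by the edge of a peak on the neighbouring gene *Dld*, and without it 6 laminin genes had a peak at a fold enrichment of at least 3 and 3 at P below 1e-05. A peak over 10000 bp touched 5 laminin genes (*Lama3*, *Lama5*, *Lamb1*, *Lamb3* and *Lamc1*), beside 20.3%, and that of *Lamb1* was the same *Dld* peak, with 223 bp on *Lamb1*. Cover of at least 50% of the body was seen for 2 laminin genes (*Lama5* and *Lamb2*), beside 23.8%.

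**Figure D1:**
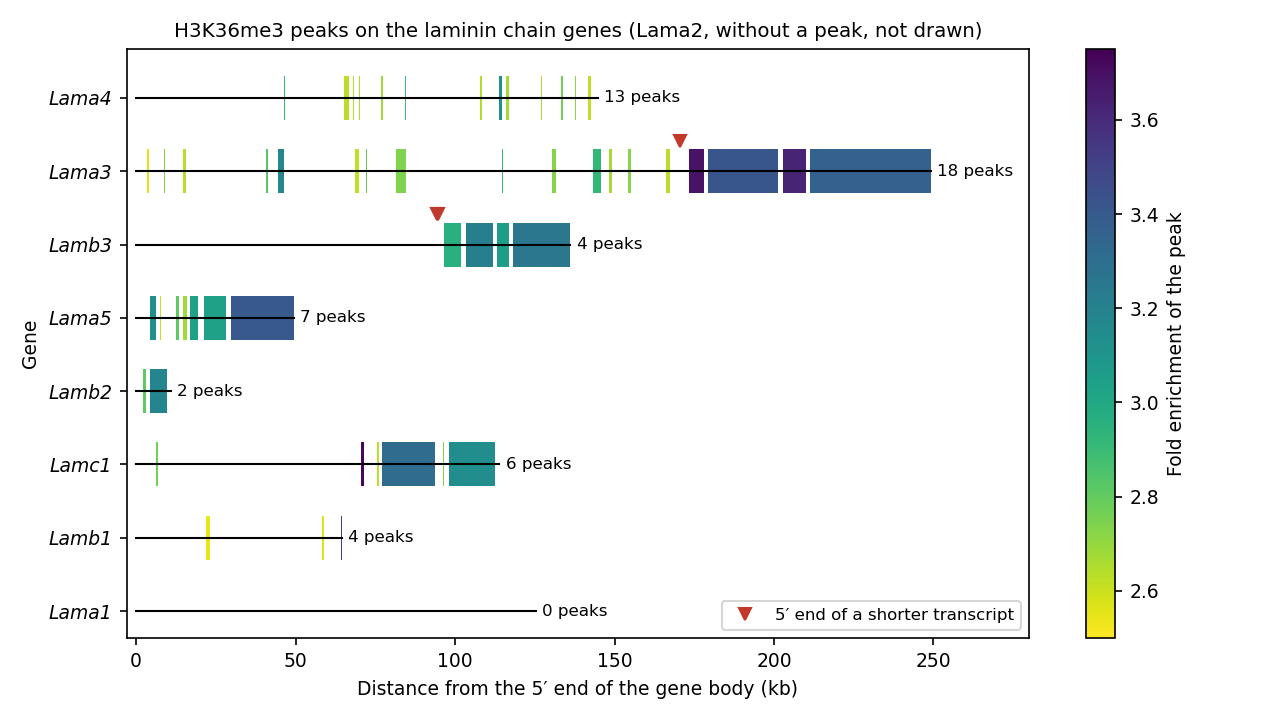
H3K36me3 peaks (coloured blocks, colour by fold enrichment) on the gene bodies of 8 laminin chain genes, by distance from the 5′ end in kb, with *Lama2* not drawn because it is long and had no peak; the narrowest peaks are drawn slightly wider than they are. Narrow peaks are scattered over *Lama4*, while the blocks on *Lama3* and *Lamb3* begin just after the 5′ end of a shorter transcript (triangles).

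*Lama4* (10:38965515-39110188, + strand, 38 exons) was marked by small, weak peaks spread from intron 3 to near the 3′ end. The 13 peaks were 251 to 1589 bp wide, with a median of 601 bp, and 11 of them were under 1000 bp. Their fold enrichment ran between 2.62 and 3.12, with a median of 2.67. The strongest was a peak of 1182 bp in intron 24, with a fold enrichment of 3.12 and a −log10 P of 4.21, and the other 12 were all under a fold enrichment of 3. None had a P below 1e-05, and the strongest stood at percentile 70.6 of all peaks by fold enrichment.

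The first 46389 bp of *Lama4* held no peak. Gaps between neighbouring peaks ran from 1244 to 23002 bp, so the peaks did not join into a block. Only 2 of the 13 peaks held exon bases of the protein-coding transcript (in exons 9 and 20), although the deposited annotation classed 3 as exonic, 8 as intronic and 2 as promoter. All 13 were assigned to *Lama4* by way of its retained intron transcripts, and the 2 promoter peaks lay near the starts of such transcripts at the 3′ end of the gene. Exons made up 2.93% of the peak bases and 4.18% of the body.

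Among 2912 genes between 0.5 and 2 times its length, *Lama4* stood at percentile 48.1 of covered share, beside a median of 7.61%. Among the 1898 of these with a peak it stood at percentile 20.4, beside a median of 24.7%. At least 13 peaks were found on 723 protein-coding genes, with a median covered share of 28.8%, and 32 of them (4.43%) were covered less than *Lama4*. The genes of like length nearest to *Lama4* in covered share were *Peak1*, *Cpeb3*, *Pigk*, *Man1a* and *Pcx*, between 6.04% and 6.15%. Their widest peaks were 2306 to 3721 bp, each wider than the widest on *Lama4*.

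*Lama3* (18:12333819-12583013, + strand) encodes the α3 chain and carried the widest single peak of the 9 genes. Its 18 peaks fell into 2 parts. Before the start of a shorter protein-coding transcript at 18:12504199, 14 peaks covered 9.49% of 170380 bp. From there on, 4 peaks covered 91.4% of 78815 bp. *Lama3* is known to give a long and a short product, α3B and α3A, from separate starts.

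The 4 peaks in the 3′ part of *Lama3* were strong for this library. In order from the 5′ side they were 4781, 21944, 7449 and 44258 bp wide. Their fold enrichment was 3.69, 3.41, 3.62 and 3.37 in the same order, each above that of every peak on *Lama4*. The first stood at percentile 96.7 of all peaks and began 3012 bp after the inner start. The last ran 6401 bp past the end of the gene. The 14 peaks before the inner start were 273 to 3182 bp wide, with fold enrichments of 2.56 to 3.17, ranges that take in the strongest peak and the median width of *Lama4*.

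The deposited annotation gave 3 of the 18 peaks on *Lama3* to *Lama3*, and these were weak peaks in intron 1 with fold enrichments of 2.56 to 2.72. The other 15 were given to *Gm29201* and *Gm29199*, processed pseudogenes, to *Gm29200*, an antisense transcript, and to *Gm22340*, an rRNA gene, all of which start inside or near *Lama3*. The 4 strong peaks were among these 15. Peaks that carried the symbol *Lama3* covered 0.811% of the gene body, while all peaks on the body covered 35.4%.

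*Lamb3* (1:193207699-193343878, + strand) encodes the β3 chain, and its peaks lay wholly in the 3′ part of the gene body. No peak was found on the first 94294 bp, which lie before the start of a shorter transcript at 1:193301993. From that start on, the 4 peaks covered 85.7% of 41886 bp. They were 5237, 8747, 3778 and 20396 bp wide from the 5′ side, with fold enrichments of 2.96, 3.21, 3.06 and 3.25. The first began 2203 bp after the inner start, and the last ran 2266 bp past the end of the gene. All 4 were assigned to *Lamb3*, and none had a P below 1e-05, with a highest −log10 P of 4.69. The *Lamb3* body also holds bases of other protein-coding genes, and with these left out it was covered over 38.7%.

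On the best-covered protein-coding transcript of at least 2000 bp, a measure chosen after seeing the data, *Lama3* reached 91.4% and *Lamb3* 86.2%. The only such transcript of *Lama4* spans the whole gene body, so its value of 6.09% could not change. The same measure gave a median of 5.22% over 20208 genes. *Lama4* stood at percentile 50.5 of the other genes, against percentile 97.1 for *Lama3* and 94.4 for *Lamb3*. By whole gene bodies the percentiles among all protein-coding genes were 53.9 for *Lama4*, 68.8 for *Lama3* and 64.2 for *Lamb3*. Among genes of like length they were 48.1, 89.2 and 67.9 in the same order of genes. Among those of like length with a peak they were 20.4, 81.45 and 50.8. The whole-body cover of *Lamb3*, 26.4%, thus lay near the median of 25.9% for genes of its length with a peak. *Lama4* was thus the lowest and *Lama3* the highest of the 3 in each of these rankings.

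**Figure D2:**
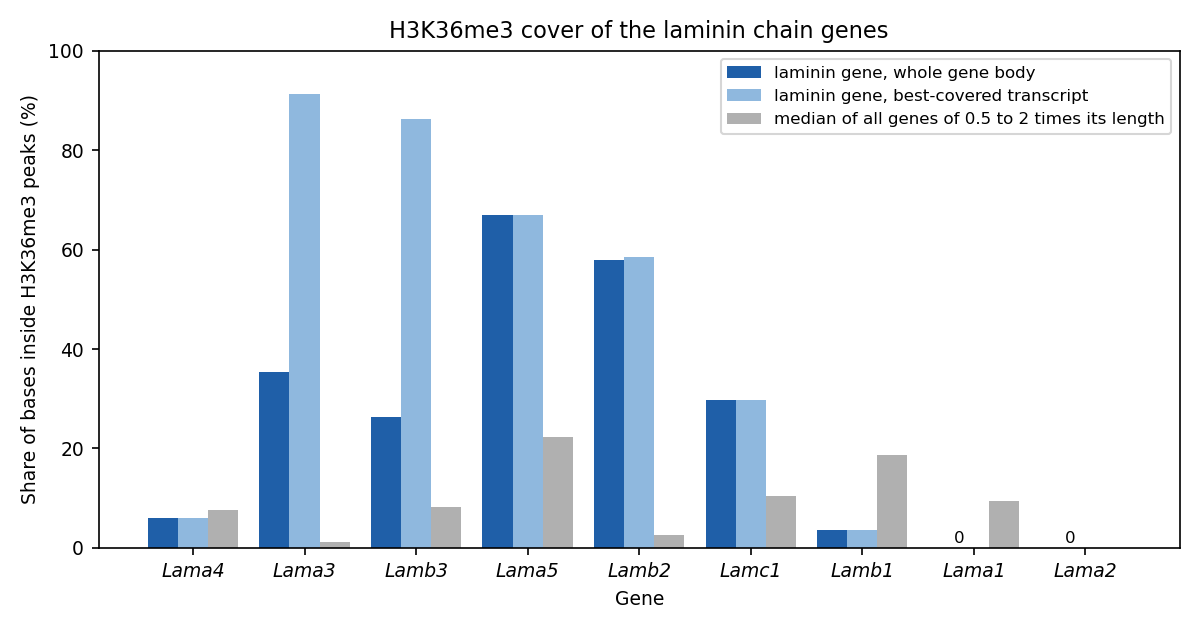
Percent of bases inside H3K36me3 peaks for each laminin gene, over the whole gene body (dark bars) and over the best-covered protein-coding transcript (light bars), beside the median whole-body share of all protein-coding genes of 0.5 to 2 times its length (grey bars). *Lama3* and *Lamb3* stand at 91.4% and 86.2% on their transcripts. *Lama4* is at 6.09% on both bars because its only such transcript spans the whole gene body.

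Of the remaining α chain genes, *Lama5* was covered over most of its body and the others had no peak. *Lama5* (2:180176373-180225859, − strand), whose α5 chain is widespread in epithelial basement membranes, had 7 peaks of 337 to 22971 bp with fold enrichments of 2.61 to 3.41. Exon bases were covered over 92.0% and intron bases over 59.5%, and 73 of its 79 exons were touched by a peak. The widest peak ran 3343 bp past the end of *Lama5* and also lay on *Adrm1*, a proteasome receptor gene. Of this peak, 19628 bp lay on *Lama5*, and its fold enrichment cannot be divided between the genes. The cover of *Lama5* was the same, 66.95%, without bases of other protein-coding genes. One peak of 7150 bp inside *Lama5* was assigned to *Mir7005*. Among genes of like length with a peak, *Lama5* stood at percentile 72.3 of covered share.

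*Lama1* (17:67697259-67822647), whose α1 chain is known from early embryonic basement membranes, and *Lama2* (10:26980036-27619758), whose α2 chain is known from muscle and peripheral nerve, had no peak. Of genes between 0.5 and 2 times their lengths, 65.9% had a peak in the case of *Lama1* and 40.0% in that of *Lama2*. Without depth or an input track, H3K36me3 below the level needed for a peak could not be told from no H3K36me3.

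The β1 and β2 genes differed from each other. *Lamb2* (9:108479736-108490530, + strand), whose β2 chain is known from neuromuscular junctions and the kidney filter, is the shortest of the 9, and its 2 peaks of 868 and 5378 bp covered 57.9%. Their fold enrichments were 2.80 and 3.18. *Lamb1* (12:31265234-31329644, + strand), whose β1 chain is part of many laminins, was covered over 3.60%. It carried 3 narrow peaks of 268 to 1280 bp with fold enrichments of 2.54 to 2.76. The fourth, 15817 bp wide with a fold enrichment of 3.50, lay almost wholly past its 3′ end on *Dld*, a gene of mitochondrial metabolism to which it was assigned. Among genes of like length with a peak, *Lamb2* stood at percentile 52.6 of covered share and *Lamb1* at percentile 8.18.

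*Lamc1* (1:153218922-153332786, − strand), the gene of the γ1 chain found in most laminins, had 2 wide peaks of 16737 and 14380 bp in its 3′ part, with fold enrichments of 3.31 and 3.14. These held 91.7% of its covered bases. The highest fold enrichment on any of the 9 genes, 3.73, belonged to a peak of 1067 bp in intron 2 of *Lamc1*. The gene was covered over 29.8%, near the median of 29.5% for genes of like length with a peak.

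**Figure D3:**
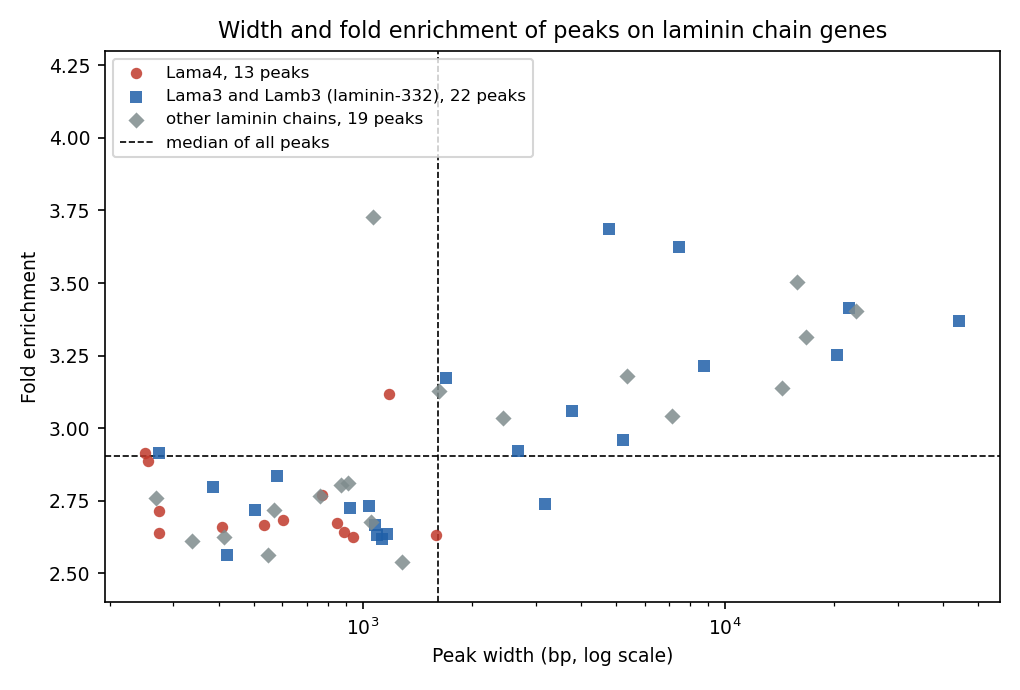
Width in bp (log scale) against fold enrichment for the 54 peaks on laminin genes, with the medians of all 45575 peaks as dashed lines. All 13 *Lama4* peaks are narrower than the median of 1614 bp, while *Lama3* holds both narrow weak peaks and peaks of up to 44258 bp, and the 4 peaks of *Lamb3* are all above both medians.

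Most bases under peaks lay towards the 3′ end in most of the laminin genes. The 3′ 50% of the body held over 50% of the covered bases in 6 of the 7 genes with a peak, and in 86.3% of all protein-coding genes with a peak. The share in this 3′ part was 70.0% for *Lama4*, against 89.5% for *Lama3* and 100% for *Lamb3*. It was 97.8% for *Lamc1*, 70.7% for *Lamb2*, 69.9% for *Lama5* and 33.2% for *Lamb1*. Counted by peak midpoints, over 50% of the peaks lay there in 3 genes, *Lama4* (69.2%), *Lamb3* (100%) and *Lamc1* (83.3%), while *Lama3* and *Lamb2* stood at 50%, *Lamb1* at 33.3% and *Lama5* at 14.3%. The median for genes of the length of *Lama4* with a peak was 75.6%. The shares of *Lama3* and *Lamb3* rest on their long gene bodies. Their shorter transcripts, at the 3′ side, were covered over 91.4% and 85.7%.

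With each body split into 20 equal bins, *Lama4* was covered over at most 33.1% of any bin, in bin 10. In *Lama3*, bins 15 to 20 were covered over 78.5% to 100%, and no earlier bin over more than 30.2%. In *Lamb3*, bins 15 to 20 were covered over 76.9% to 100% and the earlier bins held no peak. These earlier bins lie almost wholly before the inner start of *Lamb3*. Mean cover over the 10299 genes with a peak and a body of 5000 bp or more was 3.73% in bin 1 and 64.7% in bin 19.

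**Figure D4:**
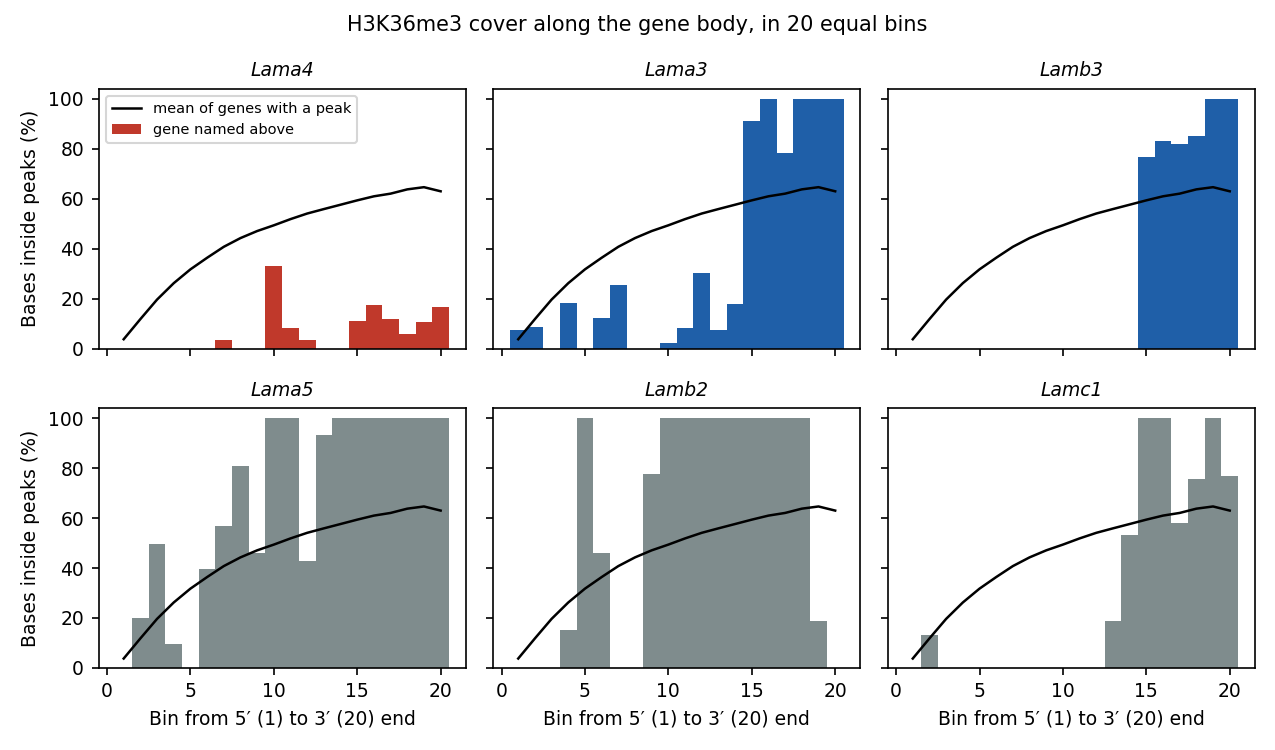
Percent of bases inside peaks in 20 equal bins of the gene body, 5′ to 3′, for 6 laminin genes (bars), with the mean over the 10299 genes with a peak and a body of 5000 bp or more (black line). *Lama4* stays below the line from bin 1 to bin 20, and *Lama3* and *Lamb3* lie above it in each bin from 15 to 20. The bins of *Lama3* and *Lamb3* follow their long gene bodies.

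Exons took a larger share of the peak bases than of the body in 6 of the 7 genes with a peak. This was not counted over all protein-coding genes, so it cannot be called a trait of the laminin genes. The values were 6.63% against 4.31% for *Lama3*, 10.2% against 3.76% for *Lamb3*, and 31.6% against 23.0% for *Lama5*. *Lamc1* had 15.3% against 6.69%, *Lamb2* 55.7% against 52.1%, and *Lamb1* 32.1% against 9.07%. The *Lamb1* value takes in 223 exon bases under the edge of the *Dld* peak. *Lama4* was the exception, with the values given above. With each peak counted once by its midpoint, the exon share was above that of the body in 3 genes, *Lama3* (5.56%), *Lama4* (7.69%) and *Lamc1* (16.7%), and below it in *Lama5* (14.3%), *Lamb2* (50%), *Lamb1* (0%) and *Lamb3* (0%). GC content of the peak bases was 40.9% on *Lama4*, 44.9% on *Lama3* and 49.0% on *Lamb3*, and that of the bodies was 40.8%, 44.7% and 46.5% in the same order. Repeat-masked bases made up 24.3% of the peak bases on *Lama4*, 22.6% on *Lama3* and 12.4% on *Lamb3*, and their part in the peak calls was not tested.

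The lists of other genes below were chosen with earlier results of these data known and are given as counts. Over all protein-coding genes, 51.4% had a peak and the median covered share was 1.07%. All 10 laminin receptor genes had a peak on the body, with a median covered share of 58.4%. *Itgb4* and *Itga6*, the integrin chains of hemidesmosomes, were covered over 93.8% and 41.2%, *Itga3* over 62.7%, and the proteoglycan gene *Sdc1* over 87.5%. *Itga7*, an integrin chain known from muscle, was the least covered, at 3.98% with 1 peak of 973 bp. Of 20 other basement membrane genes, 15 had a peak, with a median of 2.27%. *Col17a1* and *Col7a1*, collagens that join the epidermis to the dermis, were covered over 94.2% and 87.6%. *Col4a1*, *Nid1*, *Fras1*, *Frem1* and *Col4a4* had no peak, and *Col4a2*, which encodes the partner chain of collagen IV α1, was covered over 1.92%.

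Of 5 genes of laminin processing enzymes, 4 had a peak, and *Bmp1*, a protease known to cleave laminin chains, was covered over 71.4%. Among 6 genes that share the short-arm domains of laminins, *Ntn4* alone had peaks, over 25.1% of its body.

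Marker genes of several cell types were counted in the same way. Their lists were also chosen with earlier results known, so the counts are no independent check of the labelled cell type. All 9 basal KC markers had a peak, with a median covered share of 75.5%, led by *Krt5* at 96.0%. Of these markers, *Col17a1*, *Itga3*, *Itga6* and *Itgb4* were also in the lists above. Of markers of other cells, 2 of 10 endothelial, 3 of 8 pericyte and smooth muscle, none of 10 fibroblast, 2 of 8 melanocyte and 3 of 8 immune genes had a peak, with a median covered share of 0% in each list. The 2 endothelial markers were *Eng* and *Pecam1*, covered over 0.901% and 0.275%, and *Cdh5*, *Kdr*, *Tek*, *Vwf* and the others held no peak. *Lama4* lay at 6.09%. Of the 44 markers of other cells, 8 were covered more than *Lama4*. They were *Notch3* (74.5%), *Mcam* (31.3%) and *Cspg4* (6.33%) of the pericyte and smooth muscle list, *Cd52* (89.5%), *Csf1r* (10.2%) and *Cd74* (7.18%) of the immune list, and *Pmel* (15.3%) and *Mitf* (7.62%) of the melanocyte list. *Csf1r*, *Cd74* and *Pmel* were each covered by the edge of 1 peak wider than the gene, of 43661, 23549 and 20171 bp. The widest peak on *Mcam*, at 18639 bp, was also wider than its gene of 8259 bp. Such peaks lay mostly outside the marker gene. The part of other cells in the *Lama4* peaks was not tested. In bulk chromatin, a mark on few cells and a weak mark on many cannot be told apart.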

How the data were processed

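H3K36me3 ChIP-seq of primary KCs was analysed from the deposited table of annotated peaks. Per the labels and methods, the authors trimmed single-end reads and used Bowtie2 2.2.6 for alignment to GRCm38, MACS2 2.1.1 for peak calling and ChIPseeker for annotation. Not given in the sources used here was the role of the input in peak calling. The deposited values are fold enrichment (a ratio), −log10 P-values and −log10 q-values; the lowest −log10 P was 2.76 and the lowest −log10 q 1.31. The authors' widths are in bp and their distances to the TSS, a signed score column, in bases.

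Gene bodies came from GENCODE vM21 on GRCm38. Covered share is the percent of body bases inside peaks. Genes of like length are protein-coding genes of 0.5 to 2 times the length. Promoters came from RefSeq (GRCm38.p6), with 5 of 9 genes matched. No test was run, since there is 1 ChIP library. The members and lists were chosen with earlier results of these data known. All 9 genes are named, and of each list the most covered and the longest without a peak, up to 4 each; *Itga7*, *Itga6*, *Itga3*, *Col4a2*, *Nid1*, the endothelial markers and the markers covered more than *Lama4* were added after their values were seen. The code was tested on simulated intervals. Python 3.11.15, pandas 2.3.3, NumPy 2.4.6, SciPy 1.17.1 and matplotlib 3.10.9 were used.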

Additional observations from a re-analysis of the deposited data

How the results depend on the processing

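Alternative settings gave 225 values, of which 38 belong to *Lama1* and *Lama2*, which had no peak to lose. Of the other 187, 145 lay within 1.5 times the value reported and 42 did not; the covered shares have no replicate spread or binomial interval to set them against. With peaks at P below 1e-05 alone, 4 laminin genes had a peak, *Lama3* was covered over 13.7% by 3 peaks, and *Lama4*, *Lamb2* and *Lamb3* had 0 peaks and a cover of 0%. This limit left *Lama5* at 39.7%, *Lamc1* at 0.937% and *Lamb1* at 0.346%. At a fold enrichment of at least 3, *Lama4* had 1 peak over 0.817% and *Lama3* had 5 peaks. With peaks of at least 500 bp, *Lama4* had 8. By the deposited symbol, *Lama3* had 3 peaks over 0.811%. Gene models chosen after seeing the data gave *Lamb3* 72.5% on the RefSeq body and 86.2% on the best-covered transcript, and *Lama3* 91.4% on the best-covered transcript. With each peak counted once by its midpoint, 50% of the *Lama3* peaks and 14.3% of the *Lama5* peaks lay in the 3′ 50% of the body. No paired analysis was possible because there is 1 ChIP library and no test. Depth is unknown, so weak marks below the peak caller's limit could not be assessed, and none of these values has an error between animals.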
